A study of Mus musculus with 6 samples.

Results

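The MLL and COMPASS genes code for the enzymes that methylate lysine 4 of histone H3 (H3K4) and for the subunits that hold those enzymes active. They are followed here as 10 of the 12134 genes listed in any total RNA library: the methyltransferases Kmt2a, Kmt2b, Kmt2c, Kmt2d, Setd1a and Setd1b, and the subunits Wdr5, Rbbp5, Ash2l and Men1. They were chosen by name and function, with earlier results of these data known. The deposited tables list 235 of their introns in at least 1 library and 218 in all 4 total RNA libraries, and 215 of these had enough reads to be tested.

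Each methyltransferase carries a SET domain that is weakly active alone and gains activity when WDR5, RBBP5, ASH2L and DPY30 bind it. The SETD1 enzymes place most of the trimethyl mark at active promoters, KMT2A and KMT2B act with menin at developmental genes and CpG-rich promoters, and KMT2C and KMT2D place the monomethyl mark at enhancers. In embryonic stem cells KMT2B is known for trimethylation at bivalent promoters, which carry activating and repressive marks together.

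The cells were E14 mouse embryonic stem cells (129/Ola background), grown in serum with leukemia inhibitory factor. One group received a control siRNA and the other an siRNA that targets Son. SON is a nuclear speckle protein that helps the spliceosome remove introns with weak splice sites. RNA was taken 24 hours after transfection: total RNA depleted of ribosomal RNA from 2 samples per group, and polyadenylated RNA read as Nanopore cDNA from 1 sample per group. Both groups are a single cell line treated for 1 time span, and the labels do not say whether replicates were separate cultures, so p-values measure only the spread between these samples.

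For each intron the tables count reads that cross a junction split, as spliced RNA does, and reads that run across it unsplit. Splicing efficiency is the split fraction over both junctions. The log2 odds ratio used below compares unsplit reads per split read between knockdown and control, so a value above 0 means more unspliced RNA in the knockdown. A feature was called when its p in edgeR's quasi-likelihood test, adjusted by Benjamini-Hochberg over all features of the series, was under 0.05. Levels are in CPM, reads scaled to the split reads at 5′ junctions of the library, or for long reads to all reads of the library.

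Son itself checked the labels. Its split reads at 5′ junctions were 281 and 312 CPM in the controls, against 94.6 and 102 in the knockdown, a log2 fold change of -1.61 (SE 0.0869, edgeR adjusted p = 3.72e-10). Nanopore reads of Son numbered 217 of 3080426 without and 37 of 1874851 with the Son siRNA, in 1 library each. The total RNA libraries held 10556187 to 16012286 split reads at 5′ junctions. Unsplit reads made up 5.43% and 6.14% of the reads there in the controls, against 6.09% and 6.89% in the knockdown, so control replicate 2 and knockdown replicate 1 were alike in this share. Of the 10 stem cell markers 9 were listed, with summed spliced reads of 4264 and 4305 CPM in the controls, against 4098 and 4414 in the knockdown. Of the 9, Pou5f1 was called less efficiently spliced (log2 odds ratio 0.79, edgeR adjusted p = 0.00259), where 6.98% of all genes were called lower. Tfcp2l1 was called with more spliced reads (log2 fold change 0.23, edgeR adjusted p = 0.0354), where 1.96% of all genes had more. Few markers of other cells were listed, and the listed ones were low in every library. Over the libraries the fibroblast marker Thy1 (1 of 5 listed) had 1.16 to 2.19 CPM and the endoderm marker Gata4 (1 of 5) 1.83 to 2.89. The mesoderm marker Eomes (1 of 4) had 2.18 to 4.73, and the neural ectoderm markers Pax6 and Nes (2 of 3) summed to 3.53 to 4.51 CPM. The unlisted markers have no total RNA value here. Col1a1, Col1a2 and Col3a1, and Gata6, Sox17, Foxa2 and Afp, had 0 long reads in both libraries. All other markers of these lists had some, at most 13 in a library. The highest, as counts not scaled to the unequal library totals, were Gata4 with 13 in the control and 4 in the knockdown, Nes with 12 and 2, and Thy1 with 5 and 8.

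The exon ends around the called introns of Kmt2b and Kmt2d with the smallest adjusted p, 3 in each gene, are shown first, because the results turn on these introns. Each line is the spliced exon junction, 30 bases of exon on each side, 5′ to 3′ on the gene's strand, taken from the GENCODE M21 transcript in which the intron has the same number and length. Capitals mark the last 2 exon bases before the 5′ splice site and the first exon base after the 3′ splice site. The last 2 lines are the shortest tested introns of the related genes Kmt2a and Kmt2c, neither of which was called.
Kmt2b intron 17: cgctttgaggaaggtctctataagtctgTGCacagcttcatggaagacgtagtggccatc
Kmt2b intron 8: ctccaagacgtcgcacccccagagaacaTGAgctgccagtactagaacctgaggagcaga
Kmt2b intron 7: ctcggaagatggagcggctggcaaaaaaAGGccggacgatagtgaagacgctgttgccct
Kmt2d intron 10: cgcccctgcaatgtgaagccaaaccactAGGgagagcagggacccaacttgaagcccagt
Kmt2d intron 41: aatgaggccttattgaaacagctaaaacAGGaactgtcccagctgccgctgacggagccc
Kmt2d intron 9: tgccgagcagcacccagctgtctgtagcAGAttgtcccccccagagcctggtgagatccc
Kmt2a intron 23: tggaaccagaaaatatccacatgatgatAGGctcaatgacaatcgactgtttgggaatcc
Kmt2c intron 47: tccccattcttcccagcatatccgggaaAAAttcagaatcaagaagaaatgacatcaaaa

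Most 5′ splice sites follow an exon that ends in AG. Over the members, 132 of 214 tested introns with known flanks (61.7%) had AG there, and over all introns tested the share was 57.6%. Of the 11 introns called less spliced, 9 had AG before the 5′ site; the exceptions were introns 8 and 17 of Kmt2b, where the exon ends in TG. A G after the 3′ site stood at 5 of the 11 (45.5%), at 43.9% of all member introns and at 49.3% of all introns. These letters describe the exon side only, since intron sequence of the build used was not analysed here.

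Across the genes, the loss of splicing fell on Kmt2b and Kmt2d. Summed over each gene's introns, these 2 of the 10 members were called less efficiently spliced in the knockdown and none was called more efficiently spliced, where 6.98% of the 9370 genes tested were called lower and 0.128% higher. The median log2 odds ratio of the members was 0.17, and that of all genes was 0.09. When split and unsplit reads were scaled separately, the median of all genes moved to -0.03, a shift of over 0.1. Kmt2b then stood at 1.08 and Kmt2d at 0.73, both still called.

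Kmt2b codes for MLL2, which like KMT2A has a CXXC domain that binds unmethylated CpG. Its splicing efficiency was 0.929 and 0.904 in the controls, against 0.852 and 0.802 in the knockdown. Both knockdown libraries lay below both controls. The log2 odds ratio was 1.20 (SE 0.223, edgeR adjusted p = 5.79e-06). The same value came from limma on the log odds with an adjusted p of 0.2, and the log2 odds ratio was 0.96 (edgeR adjusted p = 0.101) without control replicate 1.

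Kmt2d codes for MLL4, an enhancer monomethyltransferase. Its efficiency was 0.966 and 0.957 in the controls, against 0.940 and 0.926 in the knockdown, again without overlap. The log2 odds ratio was 0.85 (SE 0.218, edgeR adjusted p = 0.00262). This call was lost without control replicate 1 (0.69, adjusted p = 0.445), without knockdown replicate 2 (0.68, adjusted p = 0.185) and in limma (0.85, adjusted p = 0.294).

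The closest relatives of these genes were not called. Kmt2a, the MLL1 gene of leukemia translocations and the paralog of Kmt2b, had efficiencies of 0.911 and 0.908 in the controls, against 0.902 and 0.896 in the knockdown, a log2 odds ratio of 0.17 (SE 0.228, edgeR adjusted p = 0.91). Kmt2c, the MLL3 gene and paralog of Kmt2d, had 0.935 and 0.922 against 0.934 and 0.919, a log2 odds ratio of 0.04 (SE 0.219, edgeR adjusted p = 0.991). For Kmt2a the groups did not overlap although the call was missed, and for Kmt2c they overlapped.

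Within each library the log2 odds of unsplit to split reads of Kmt2b minus those of Kmt2a were -0.34 and 0.06 in the controls, against 0.68 and 1.09 in the knockdown. The difference moved by 1.02 from -0.14 ± 0.29 to 0.88 ± 0.29 (SD, n = 2). For Kmt2d minus Kmt2c it was -0.97 and -0.92 in the controls, against -0.15 and -0.13 in the knockdown, a move of 0.80. In both pairs the knockdown libraries did not overlap the controls, but the exact two-sided permutation p was 0.333 for each, the smallest that 2 against 2 can give (0.5 after adjustment over the 3 pairs of paralogs compared). Setd1a minus Setd1b moved by 0.04, with an exact permutation p of 1.

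The SETD1 enzymes were not called. Setd1a, whose protein is needed in early epiblast, had efficiencies of 0.947 and 0.932 in the controls, against 0.937 and 0.918 in the knockdown over the 5 introns that belong to it alone. The other 12 of its 17 introns are also listed under the gene Gm49388, and with all 17 the values were 0.944 and 0.930 against 0.929 and 0.915, where the groups no longer overlap (log2 odds ratio 0.34, edgeR adjusted p = 0.607). Setd1b had 0.926 and 0.919 against 0.908 and 0.911, also without overlap, a log2 odds ratio of 0.24 (SE 0.245, edgeR adjusted p = 0.851).

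Of the shared subunits, Wdr5 and Ash2l had the highest efficiencies of the family and Rbbp5 the lowest. Wdr5, which binds the enzymes near their SET domain, had efficiencies of 0.976 and 0.974 in the controls, against 0.974 and 0.970 in the knockdown. Ash2l, which forms a heterodimer with RBBP5 that stimulates the SET domain, had 0.977 and 0.975 against 0.978 and 0.972. Their values in knockdown and control lay close together. Rbbp5 was the least efficiently spliced member in the controls, at 0.873 and 0.868, with 0.883 and 0.848 in the knockdown, and Men1, which codes for the tumour suppressor menin, had 0.963 and 0.956 against 0.962 and 0.95. All 4 subunit genes overlapped between the groups, and their log2 odds ratios lay between 0.03 and 0.16.

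Over the 8 members other than Kmt2b and Kmt2d the edgeR quasi-likelihood test called 0 genes. None had an unadjusted p under 0.05 either, and DESeq2 and limma also called 0. Their adjusted p in edgeR lay between 0.799 and 0.995. All 10 members had log2 odds ratios above 0, but Kmt2c (-0.08), Ash2l (-0.09) and Rbbp5 (-0.07) were below 0 under separate scaling.

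**Figure D1:**
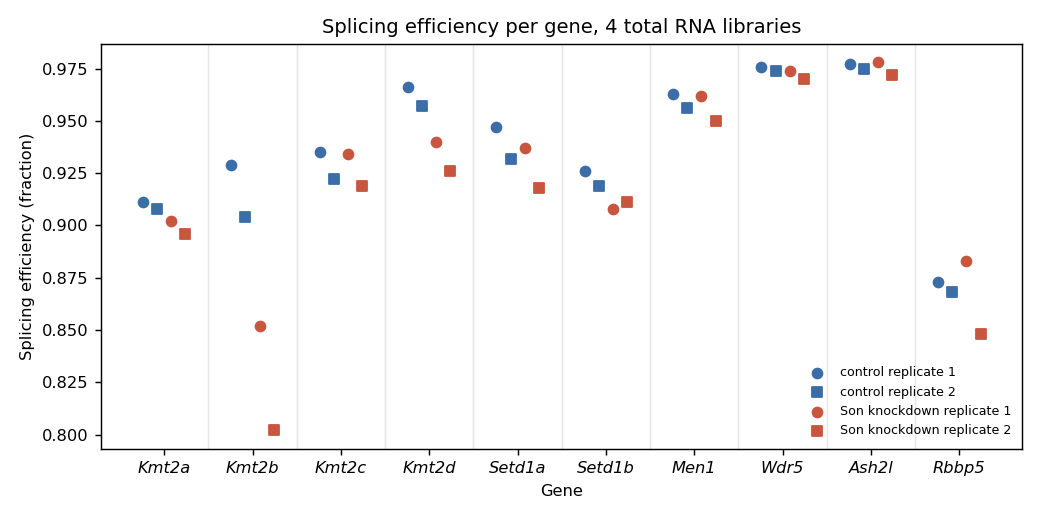
Splicing efficiency (split fraction of junction reads summed over a gene's introns, y axis) of the 10 genes (x axis) in the 4 total RNA libraries, 1 point per library. Kmt2b falls from 0.929 and 0.904 in the controls to 0.852 and 0.802 in the knockdown and Kmt2d from 0.966 and 0.957 to 0.940 and 0.926, while the 4 points of Wdr5 and of Ash2l lie between 0.970 and 0.978.

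Intron by intron, 11 of the 215 tested member introns were called less efficiently spliced (5.12%) and 1 more efficiently, where 1.71% of the 63309 introns tested were called lower and 0.0442% higher. All 11 belong to Kmt2b (7 of 27) and Kmt2d (4 of 40), which together had 16.4% of their tested introns called. Both knockdown libraries lay below both controls at 20 introns of Kmt2b and 20 of Kmt2d, or 59.7% of the 67, and at 24.3% of all introns. None of the 12 called introns overlaps an annotated exon on either strand in GENCODE M21. On the same strand this holds for all 224 listed introns of the members' reference transcripts, so it does not set the called ones apart.

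The called introns of Kmt2b were numbers 7 to 11, 16 and 17 of the 36 in its reference transcript ENSMUST00000006470, which lies on the minus strand of chromosome 7. The most firmly called was intron 17 (chr7:30279251-30279350, GRCm39, 100 nt). Its efficiency was 0.974 and 0.921 in the controls, against 0.817 and 0.792 in the knockdown. The log2 odds ratio was 2.25 (SE 0.444, edgeR adjusted p = 0.00042), and the controls stood apart from each other by more than the knockdown libraries did. It was 1.49 (edgeR adjusted p = 0.391) without control replicate 1 and 3.19 (adjusted p = 0.000296) without control replicate 2. The call was also lost in limma (adjusted p = 0.379) and with the 3′ junction alone (edgeR adjusted p = 0.0533).

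Intron 8 (chr7:30282308-30282608, 301 nt) had efficiencies of 0.955 and 0.956 in the controls, against 0.852 and 0.693 in the knockdown. Here the knockdown libraries differed, with replicate 2 the lower, and the log2 odds ratio was 2.54 (SE 0.662, edgeR adjusted p = 0.0173). Intron 7 (chr7:30282888-30283124, 237 nt) was poorly spliced already in the controls, at 0.665 and 0.688. It was at 0.451 and 0.258 in the knockdown, so that in knockdown replicate 2 most junction reads were unsplit (log2 odds ratio 1.91, SE 0.499, edgeR adjusted p = 0.0178).

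The called introns of Kmt2b lie between introns 3 and 17, where 13 introns were tested. In every one of the 13 both knockdown libraries lay below both controls, with changes in mean efficiency from -0.322 to -0.0703. Intron 6, just before the called ones, and introns 12, 13 and 14, between them, had log2 odds ratios of 1.52 to 1.96 and missed the threshold with edgeR adjusted p between 0.051 and 0.0748. Introns 3 and 4 had 1.13 and 1.46 (edgeR adjusted p = 0.398 and 0.112). Lower values were not confined to these limits, which were set after the values were seen, so no test was made of the stretch.

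Introns 1, 18 and 19 of Kmt2b were also below both controls in both knockdown libraries. Intron 19 had efficiencies of 0.969 and 0.965 in the controls, against 0.927 and 0.860 in the knockdown (log2 odds ratio 1.73, edgeR adjusted p = 0.233). Of the 9 tested introns from 20 to 36, 3 were below both controls, 2 had an unadjusted p under 0.05 and 0 were called. Intron 34, with 0.972 and 0.986 in the controls, against 0.881 and 0.846 in the knockdown, had a log2 odds ratio of 2.68, above that of every intron called lower, but was not called (edgeR adjusted p = 0.151). Introns 25 to 28 overlapped between the groups, with log2 odds ratios from -0.65 to 0.66.

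The reference transcript was also cut into 3 equal parts by intron number, which sets no limits by the values. In the first part of Kmt2b (introns 1 to 12) the pooled efficiency was 0.909 and 0.9 in the controls, against 0.809 and 0.706 in the knockdown. In the middle part it was 0.936 and 0.888 against 0.804 and 0.713. In the last part (introns 25 to 36) it was 0.953 and 0.931 against 0.928 and 0.920, so knockdown and control differed there by about as much as the controls differed from each other. Called introns numbered 5 of 11, 2 of 7 and 0 of 8 in these parts.

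**Figure D2:**
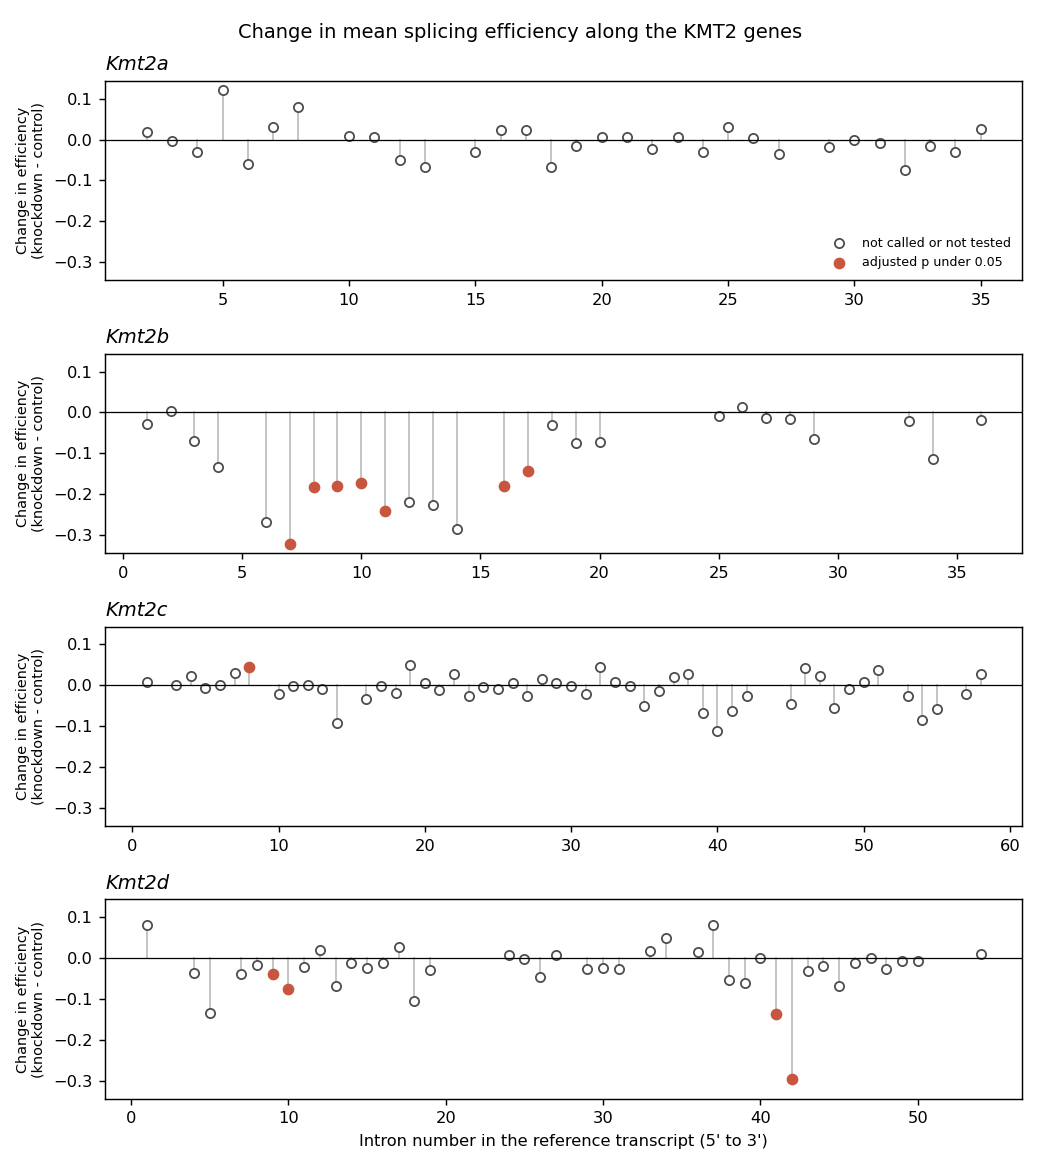
Change in mean splicing efficiency (knockdown minus control, y axis) at each intron of Kmt2a, Kmt2b, Kmt2c and Kmt2d, by its number in the reference transcript (x axis). Filled points are introns with an edgeR adjusted p under 0.05, and the run of low points in Kmt2b reaches from intron 3 to intron 17 with changes of -0.0703 to -0.322.

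In Kmt2d the called introns came as neighbouring pairs, introns 9 and 10 and introns 41 and 42 of 54 in ENSMUST00000023741, on the minus strand of chromosome 15. Intron 10 (chr15:98762091-98762226, GRCm39, 136 nt) had efficiencies of 0.967 and 0.966 in the controls, against 0.888 and 0.897 in the knockdown, with replicates within 0.01 of each other in both groups. Its log2 odds ratio was 1.81 (SE 0.443, edgeR adjusted p = 0.00857). Intron 41 (chr15:98741108-98741232, 125 nt) had 0.957 and 0.962 against 0.807 and 0.840, a log2 odds ratio of 2.33 (SE 0.605, edgeR adjusted p = 0.017).

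Intron 9 (chr15:98762373-98762529, 157 nt) was spliced almost fully in the controls, at 0.981 and 0.976, and at 0.949 and 0.929 in the knockdown (log2 odds ratio 1.56, SE 0.425, edgeR adjusted p = 0.0252). Intron 42 (chr15:98740784-98740939, 156 nt) had the largest change in Kmt2d, from 0.738 and 0.676 in the controls to 0.403 and 0.418 in the knockdown (log2 odds ratio 1.81, SE 0.52, edgeR adjusted p = 0.0394). By the same 3 parts, the pooled efficiency of Kmt2d was 0.961 and 0.953 against 0.941 and 0.904 in the first, 0.972 and 0.965 against 0.954 and 0.947 in the middle and 0.967 and 0.958 against 0.932 and 0.934 in the last. In each part both knockdown libraries lay below both controls. In Kmt2a this held in the middle part alone, at 0.921 and 0.916 in the controls against 0.889 and 0.902 in the knockdown. In Kmt2c it held in no part, although 9 of the 16 tested introns of its last part lay below both controls, against 24.3% of all introns.

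The intron calls depend on single libraries. Without control replicate 1, of the 12 called introns only the one in Kmt2c remained, and without control replicate 2 only 1 in Kmt2b. Without knockdown replicate 2, 3 remained, DESeq2 kept 1 of the 12, in Kmt2b, and limma called 0.

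The other 8 genes had 148 tested introns, of which 0 were called lower, 1 was called higher and 4 had an unadjusted p under 0.05 in edgeR. DESeq2 and limma called 0 of them. Kmt2c intron 8 (chr5:25590758-25592921, GRCm39, 2164 nt) was the 1 called higher: its efficiency was 0.984 and 0.929 in the controls and 1 in both knockdown libraries. Over the group, 14 unsplit against 372 split reads in the controls stood beside 0 against 346 in the knockdown. With a floor of 3 unsplit reads in place of the 0, the odds of an unsplit read were 4.34-fold lower in the knockdown than in the pooled controls. This takes the control counts as they are, so it is not a lower limit. The edgeR adjusted p was 0.0211, and 0.00856 to 0.288 over the alternatives that tested the intron. Control replicate 2 held 10 of the unsplit reads, all at the 3′ junction, and control replicate 1 held 4, with 3 there. With the 5′ junction alone, and without control replicate 2, this intron had too few unsplit reads to be tested.

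For each remaining member the intron with the smallest p is given. Setd1a intron 6 (chr7:127383375-127384019, 645 nt) had efficiencies of 0.939 and 0.930 in the controls, against 0.920 and 0.853 in the knockdown (edgeR adjusted p = 0.394). Wdr5 intron 2 (chr2:27408805-27409360, 556 nt) had 0.990 and 0.982 against 0.977 and 0.967 (edgeR adjusted p = 0.304). Kmt2a intron 13 (chr9:44745318-44747098, 1781 nt) had 0.885 and 0.893 against 0.820 and 0.821 (edgeR adjusted p = 0.635). In all 3 introns the groups stayed apart without being called.

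Setd1b intron 15 (chr5:123301555-123301633, 79 nt) had efficiencies of 0.985 and 0.980 in the controls, against 0.970 and 0.961 in the knockdown (edgeR adjusted p = 0.566). Ash2l intron 13 (chr8:26308673-26309653, 981 nt) had 0.992 and 0.990 against 0.988 and 0.982 (edgeR adjusted p = 0.839). Men1 intron 3 (chr19:6387312-6387508, 197 nt) had 0.980 and 0.955 against 0.944 and 0.951 (edgeR adjusted p = 0.87). Rbbp5 was the only one of these genes whose leading intron pointed the other way: intron 12 (chr1:132424014-132424536, 523 nt) had 0.903 and 0.886 in the controls, against 0.932 and 0.965 in the knockdown (edgeR adjusted p = 0.582).

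Kmt2b and Kmt2d are built of short introns between GC-rich exons. The median tested intron was 183 nt in Kmt2b and 136 nt in Kmt2d, against 778 nt in Kmt2a, 1220 nt in Kmt2c and 1128 nt over all introns tested. The exon flanks, up to 100 nt on each side, held a median of 57.9% GC in Kmt2b and 58.2% in Kmt2d, against 50.5% in Kmt2a, 46.5% in Kmt2c and 50.5% over all introns. Setd1b (58%) and Men1 (59.7%) had flanks as rich in GC. None of their 11 and 5 tested introns was called, too few to set against the 1.71% of all introns called lower. The median log2 odds ratio of the introns was 0.57 in Setd1b and 0.45 in Men1. It was 1.46 in Kmt2b, 0.96 in Kmt2d and 0.12 over all introns.

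Short introns were called more often throughout the series. Of introns up to 200 nt, 7.42% of all 9780 were called lower, with 4 of 15 in Kmt2b, 4 of 30 in Kmt2d and 0 of 27 in the other 8 genes. From 201 to 1000 nt the share was 1.44% of all introns, 3 of 10 in Kmt2b, 0 of 6 in Kmt2d and 0 of 57 in the other 8 genes. Above 1000 nt it was 0.221% of all introns and 0 of 70 member introns.

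Length did not order the introns within Kmt2b or Kmt2d. Over all 215 member introns Spearman's rho between length and change in efficiency was 0.17, while within Kmt2b it was -0.03 (n = 27) and within Kmt2d -0.06 (n = 40). For the GC share of the flanks rho was -0.30 over the members (n = 214), -0.03 within Kmt2b and 0.11 within Kmt2d. Introns of 1 gene share its transcripts and libraries, so these values are descriptions. Whether length or GC content plays a part in the calls was not tested.

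**Figure D3:**
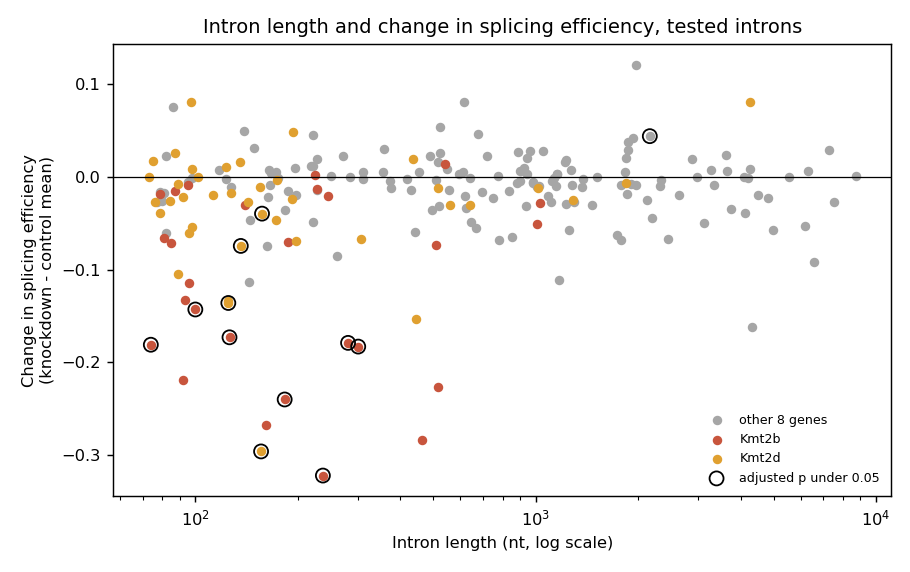
Change in splicing efficiency (knockdown minus control mean, y axis) against intron length in nt (log scale, x axis) for the 215 tested introns. Circled points have an edgeR adjusted p under 0.05: the 11 called lower are at most 301 nt long and belong to Kmt2b and Kmt2d, and the 1 called higher, in Kmt2c, is 2164 nt long.

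Spliced reads fell in Kmt2b, the 1 member called in this measure. Split reads at 5′ junctions, summed per gene, were called fewer in 1 of 10 members and more in 0, where 6.76% of the 9474 genes tested had fewer and 1.96% more. An unadjusted p under 0.05 was reached by 3 members, and DESeq2 called 1. The median log2 fold change of the members was -0.03, against 0.01 over all genes. In bulk RNA, fewer cells with a transcript and less of it per cell cannot be told apart.

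Kmt2b had 296 and 318 CPM of split reads in the controls, against 240 and 214 in the knockdown. The groups did not overlap, and the log2 fold change was -0.45 (SE 0.0797, edgeR adjusted p = 0.000564). Unsplit reads at its 5′ junctions were 21 and 30.8 CPM in the controls against 40.1 and 47.9 in the knockdown, 1.7 times the control mean. The spliced-read call was lost without control replicate 2 (-0.40, adjusted p = 0.0504) and with 1 intron per gene, the best covered, in place of the sum (-0.12, adjusted p = 0.798).

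Along Kmt2b, the lower spliced reads and the lower efficiency were found in the same parts of the gene. Both measures count the same split reads, so this agreement is not a second result. Per intron, the first part had 9.41 and 10.7 CPM of split reads in the controls, against 7.20 and 5.18 in the knockdown, and the middle part had 9.37 and 9.89 against 6.73 and 5.50. In the last part the values were 13.4 and 13.5 against 12 and 12.6. As log2 ratios of the means these were -0.70, -0.66 and -0.13, with the smallest difference nearest the 3′ end. These parts were not tested one by one.

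Kmt2d had 515 and 530 CPM of split reads in the controls, against 496 and 459 in the knockdown. Its groups did not overlap, but the log2 fold change of -0.15 (SE 0.07) was not called (edgeR adjusted p = 0.234). Unsplit reads of Kmt2d were 17.5 and 23.5 CPM in the controls, against 30.6 and 37.3 in the knockdown, 1.66 times the control mean. Along the gene the log2 ratio of split reads was -0.11, -0.09 and -0.17 in the 3 parts.

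Kmt2c had 425 and 414 CPM of split reads in the controls, against 382 and 383 in the knockdown, a log2 fold change of -0.16 (SE 0.07, edgeR adjusted p = 0.219). Setd1a had 174 and 180 against 152 and 169, a log2 fold change of -0.17 (SE 0.0855, edgeR adjusted p = 0.285). In both genes the knockdown was below the controls without being called. Kmt2a, Setd1b, Men1, Wdr5, Ash2l and Rbbp5 had log2 fold changes from -0.04 to 0.11.

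**Figure D4:**
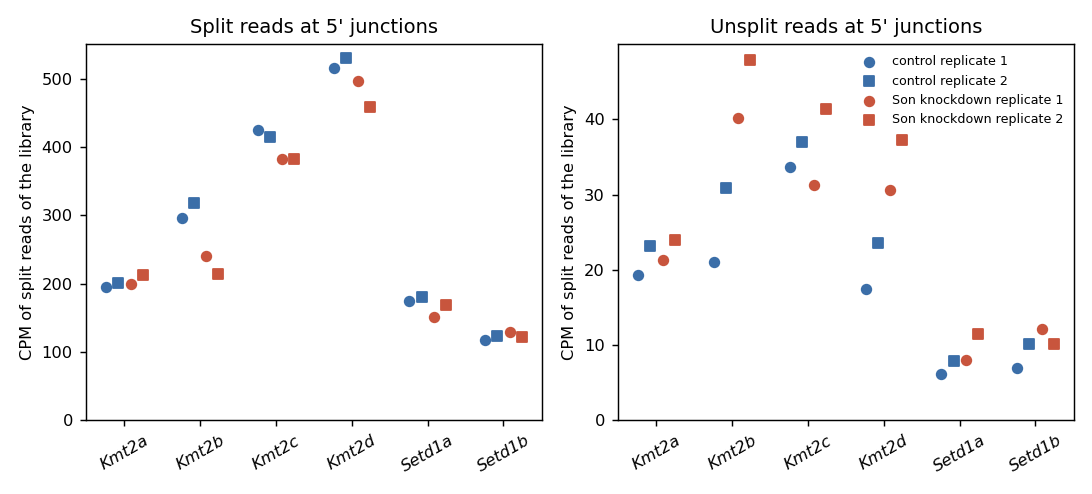
Split (left) and unsplit (right) reads at 5′ junctions in CPM of the library's split reads (y axes) for the 6 methyltransferase genes (x axes), 1 point per total RNA library. Kmt2b loses split reads, from 296 and 318 to 240 and 214, and gains unsplit reads, from 21 and 30.8 to 40.1 and 47.9, while Kmt2d has 17.5 and 23.5 unsplit in the controls against 30.6 and 37.3 in the knockdown.

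Set per intron, which counts 1 junction per intron and so does not depend on gene length, the levels of the members in the controls differed by more than 10 times. Ash2l was highest with 85.8 ± 2.9 CPM of split reads per intron (SD, n = 2), followed by Setd1a with 35.5 and Wdr5 with 31.8. With the introns it shares with Gm49388, Setd1a was at 24.5 and 25.5 and so below Wdr5. Kmt2d with 12.4, Kmt2b with 11.4 and Setd1b with 10.9 came next, and Rbbp5 (8.18), Kmt2c (8.07), Men1 (7.94) and Kmt2a (5.99) were lowest. The control ranges of Kmt2b and Setd1b overlapped, as did those of Rbbp5, Kmt2c and Men1, so their order is not fixed by these libraries. In the knockdown Kmt2b stood at 7.93 and 8.87, within reach of Rbbp5 at 8.52 and 8.86, whereas in the controls the lowest value of Kmt2b (10.9) was above the highest of Rbbp5 (8.35).

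The long reads count polyadenylated transcripts. With 1 library per group there is no replicate check, and the 95% Wilson intervals cover counting error only. Kmt2b had 89 of 3080426 reads in the control and 19 of 1874851 in the knockdown, or 28.9 (23.5 to 35.6) and 10.1 (6.49 to 15.8) CPM, 2.79-fold lower. It was the 1 member of 10 past 2-fold, where 4.16% of the 9616 genes with enough reads were at least 2-fold lower. It was also the 1 member whose intervals stood apart downward, as they did in 5.99% of the 9616 genes.

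Of 75 annotated member transcripts 56 had a long read and 24 had at least 20 over both libraries. Of these, 3 were at least 2-fold lower and 1 was at least 2-fold higher, 16 of the 24 lay below 0 on the log2 scale and the median log2 ratio was -0.09. Over all 13807 transcripts 5.80% were at least 2-fold lower and 3.32% higher. Kmt2b-201, a coding transcript, had 49 reads in the control and 6 in the knockdown, or 15.9 (12 to 21) and 3.20 (1.47 to 6.98) CPM, 4.63-fold lower. Kmt2b-206 had 21 and 5 reads, 2.38-fold lower, and Kmt2b-202 had 17 and 8, 1.25-fold lower, and the intervals of both overlapped. Kmt2b-201 and Kmt2b-202 are 8469 and 8454 nt long, and how reads were divided between them was not checked.

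Kmt2a-202 was the other coding transcript past 2-fold, with 43 reads in the control and 12 in the knockdown. Its intervals overlapped, at 14.0 (10.4 to 18.8) and 6.40 (3.66 to 11.2) CPM. Its companion Kmt2a-201, with 51 and 29 reads, was at 16.6 and 15.5 CPM. The 2 transcripts are 16470 and 16461 nt long, and how reads were divided between them was not checked. Kmt2a as a whole was at 33.8 (27.9 to 40.9) and 29.9 (23 to 38.8), so the gene's intervals overlapped. For Kmt2d the transcript with most reads, Kmt2d-201, had 82 and 43 reads, or 26.6 and 22.9 CPM, and the gene was at 47.7 (40.6 to 56.1) and 43.2 (34.8 to 53.7). Kmt2d, with splicing called lower in total RNA, was therefore not separated from the control in the long reads.

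Ash2l was the 1 member whose intervals stood apart upward, at 296 (277 to 316) CPM in the control and 358 (332 to 386) in the knockdown. Of the 9616 genes 4.26% had intervals apart upward, and Ash2l, with 912 and 671 reads, has the most reads of the members. Its leading transcript Ash2l-201 had 492 and 345 reads, or 160 and 184 CPM. The transcript past 2-fold higher, Ash2l-205, is annotated as a target of nonsense-mediated decay and rests on 9 and 13 reads, 2.92 (1.54 to 5.55) and 6.93 (4.05 to 11.9) CPM, with overlapping intervals. In total RNA, spliced reads of Ash2l were 670 and 703 CPM in the controls, against 778 and 721 in the knockdown, not called (log2 fold change 0.11, SE 0.0679, edgeR adjusted p = 0.426).

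The other genes lay between -0.40 and 0.21 on the log2 scale in the long reads, all with overlapping intervals. Setd1a was at 27.6 (22.3 to 34.1) and 20.8 (15.2 to 28.4) CPM, Setd1b at 37.0 and 32.0, and Kmt2c at 34.7 and 40.0. By their transcripts with most reads, Kmt2c-201 had 69 and 48 reads, Setd1a-201 53 and 30, Setd1b-204 82 and 41, Wdr5-201 228 and 124, Rbbp5-201 91 and 54, and Men1-201 20 and 17. Transcripts annotated with a retained intron held 2 of the 89 control reads of Kmt2b and 0 of its 19 knockdown reads, and 0 of 19 allows a share of up to 15.8%. At this depth a gain of such transcripts was not detectable.

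**Figure D5:**
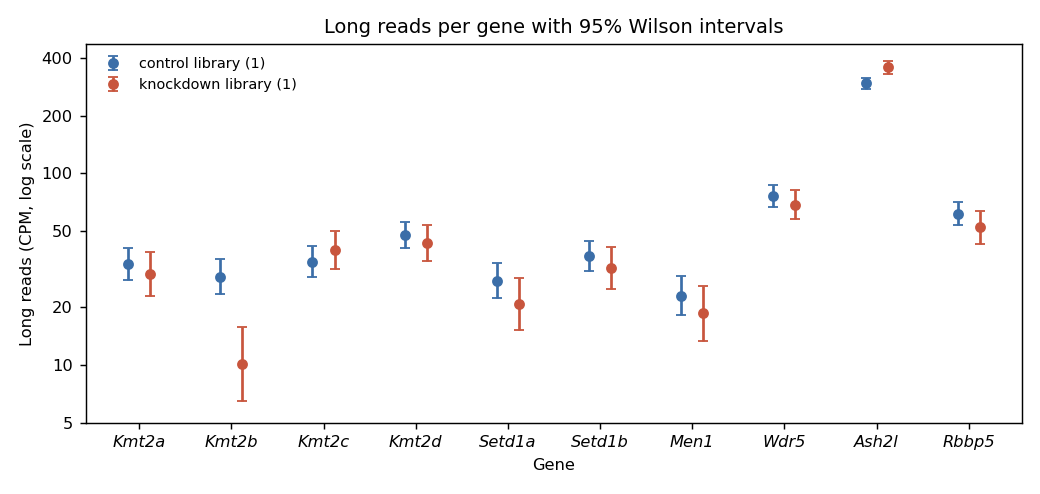
Long reads scaled to the library total, in CPM (log scale, y axis) for the 10 genes (x axis), 1 control and 1 knockdown library, with 95% Wilson intervals. The intervals are apart for Kmt2b, at 28.9 and 10.1, and for Ash2l, at 296 and 358, and overlap for the other 8 genes.

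Among the partner subunits of the complexes, Cxxc1 moved. It codes for CFP1, the CpG-binding subunit of the SETD1 complexes. Of 11 partners 10 were tested, and Cxxc1 was the 1 called less efficiently spliced, at 0.963 and 0.945 in the controls, against 0.896 and 0.895 in the knockdown (log2 odds ratio 1.32, SE 0.278, edgeR adjusted p = 9.79e-05). This call was lost without control replicate 1 (1.02, adjusted p = 0.212) and in limma (1.31, adjusted p = 0.156), and 6.98% of all genes were called lower. It was also the 1 with fewer spliced reads, 80.0 and 78.9 CPM against 53.6 and 54.4 (log2 fold change -0.58, SE 0.103, edgeR adjusted p = 0.000642), where 6.76% of all genes had fewer, and this call was lost with the best covered intron (-0.49, adjusted p = 0.149). Of its 8 tested introns 3 were called lower, and 1 of 23 in Bod1l, a SETD1B partner, so 4 of the 127 partner introns were called, against 1.71% of all introns. The median log2 odds ratio of the partners was 0.09, the same as that of all genes.

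Of the enzymes that remove the H3K4 mark, 5 of 6 were tested. None was called in splicing efficiency by edgeR as fitted to the other genes, nor by DESeq2 or limma, and 1, Kdm5c, had an unadjusted p under 0.05 (0.963 and 0.956 in the controls, 0.942 and 0.936 in the knockdown, edgeR adjusted p = 0.0831; called with separate scaling, adjusted p = 0.00769). Kdm5c, an X-linked demethylase of trimethylated H3K4, was the 1 of 5 with fewer spliced reads. It had 421 and 424 CPM in the controls, against 291 and 271 in the knockdown (log2 fold change -0.61, SE 0.0727, edgeR adjusted p = 6.69e-06). Over all genes, 6.98% were called lower in splicing efficiency and 6.76% had fewer spliced reads. Of 7 other methyltransferases linked to H3K4, 4 were tested, and edgeR and DESeq2 called 0 of them in either measure, with 0 at an unadjusted p under 0.05.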

How the data were processed

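The members, gene lists and naming rules were chosen with earlier results of these data known. The deposited counts for total RNA give split and unsplit reads per intron junction, made by the authors with SPLICE-q per the labels, beside the splicing efficiency as a fraction. No junction with fewer than 10 reads is listed. The deposited long-read counts are per transcript. The submitters' processing notes list GRCm39, SAMtools and minimap2 with no role; settings, annotation and strandedness are not given in the sources used here. Coordinates are those of the tables. Since 99.8% of introns had the same length in GENCODE M21 but 2.45% the same position, sequences came from its transcripts only. The tables leave out 43 of the 267 introns of the members' reference transcripts, and 41 of these overlap an exon of another transcript.

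Introns listed in all 4 libraries, with a minimum of 10 reads of each kind in total, were tested in edgeR 4.0.16 (R 4.3.3) with terms for the library, for unsplit reads and, as the tested term, for unsplit reads under knockdown. Both columns of a library had 1 size, and a read that spans an intron counts at both junctions. Gene sums left out introns listed under more than 1 gene. Spliced reads used TMM and filterByExpr. Alternatives used DESeq2 1.42.0 and limma 3.58.1, and the functions were tested on simulated data. Long-read ratios used a pseudocount of 0.5 reads and a minimum of 20 reads, with Wilson intervals from scipy 1.17.1. Introns named are the 3 called with the smallest adjusted p per member, or else the one with the smallest p; Kmt2d intron 42 and stretches of Kmt2b were named after their values were seen. For likeness, the 3 genes nearest in efficiency are named. The label of the long-read control names a knockdown sample as its starting material, so its relation to the total RNA samples is unclear.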

Additional observations from a re-analysis of the deposited data

How the results depend on the processing

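The 12 member introns called in splicing efficiency became 1 with the 5′ junction alone, 1 with the 3′ junction alone, 1 in DESeq2 and 0 in limma, and 1 to 15 when a library was left out (1 without control replicate 1, 1 without control replicate 2, 3 without knockdown replicate 2). All 12 remained among the 16 called with split and unsplit reads scaled separately and the 15 called with at least 50 reads in every library. The 2 genes called in splicing efficiency became 0 in limma and 0 to 2 with a library left out, 0 of them without control replicate 1 and 1 without knockdown replicate 2. The 1 gene called in spliced reads became 0 with the best covered intron and 0 to 4 with a library left out: 0 without control replicate 2, 3 without knockdown replicate 1 and 4 without knockdown replicate 2. In those fits Kmt2c, Kmt2d, Setd1a or Ash2l passed the threshold with log2 fold changes of at most 0.25 in size. The 4 long-read transcripts past 2-fold became 2 with a pseudocount of 5 reads, 2 with at least 50 reads and 17 with no minimum. Settings with fewer libraries have fewer samples to estimate the spread; for the other changes the cause was not tested.

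Replicate numbers are shared by the groups. Across genes, the deviations of same-numbered libraries from their group means correlated weakly (0.0351 in gene log odds and 0.0605 in spliced reads, 2 pairs). This correlation cannot show a shift common to all genes. The unsplit share was higher in replicate 2 in both groups, 6.14% against 5.43% in the controls and 6.89% against 6.09% in the knockdown. With the replicate block, 19 introns (12 in Kmt2b, 6 in Kmt2d, 1 in Kmt2c), 2 genes in splicing efficiency and 1 gene in spliced reads were called, the 19 including all 12. It also called the demethylase gene Kdm5c in splicing efficiency (log2 odds ratio 0.61, edgeR adjusted p = 5.96e-06). Over single introns and genes, 333 values kept their side of the threshold, 49 lost their call, 5 gained one and 0 called values reversed. One alternative, Setd1a with the introns shared with Gm49388, was chosen after seeing the data and changed no call. A lone library in a group is assumed to vary like the others. Depth limits the less expressed members: the median intron held 147 junction reads per library in Kmt2a and 1797 in Ash2l.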

Other observations

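Among 510 genes with at least 20 tested introns, Fanca, Plxnb2 and Tmem94 were closest to Kmt2b in splicing efficiency over the 4 total RNA libraries, by mean absolute difference. Fanca codes for a subunit of the Fanconi anemia core complex and Plxnb2 for a semaphorin receptor. Fanca had efficiencies of 0.931 and 0.915 in the controls, against 0.857 and 0.819 in the knockdown, within 0.00871 of Kmt2b on average. Plxnb2 had 0.932 and 0.921 against 0.838 and 0.797, and Tmem94 had 0.938 and 0.924 against 0.858 and 0.792. All 3 were called less efficiently spliced, with edgeR adjusted p of 3.96e-06, 1.53e-08 and 8.94e-08, and with fewer spliced reads, at log2 fold changes of -0.49, -0.58 and -0.51. The efficiency of these genes was the measure that chose them, so it and their splicing calls are a description. Split reads are part of that measure, so their fewer spliced reads are not a separate result. Over all genes, 6.76% had fewer spliced reads.

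The genes closest to Ash2l, the member with the largest adjusted p, were Lars, Iqgap1 and Cltc, a leucyl-tRNA synthetase, a scaffold protein and the clathrin heavy chain. Their efficiencies lay within 0.0014 of those of Ash2l on average. Their log2 fold changes of spliced reads were -0.02, 0.02 and 0.05, none of them called by edgeR.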
